A study of Homo sapiens with 4 samples.

Results

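Of 22802 RUNX1 regions in a T-cell leukaemia line, 640 (2.81%) lay at the outer ends of long non-coding RNA (lncRNA) genes, away from protein-coding genes. A RUNX1 region is a run of touching or overlapping peaks that holds a peak of both RUNX1 libraries. It was taken when its midpoint lay within 1000 bp of an outer end of a lncRNA gene, outside every protein-coding gene, and 1 to 100 kb from the closest protein-coding gene end (RefSeq, GRCh38.p14). The regions were thus chosen by measured RUNX1 peaks and their positions. The 640 regions belonged to 588 lncRNA genes, of which 49 had 2 or more. The libraries were CUT&Tag profiles of 6T-CEM, an established human line of T-cell acute lymphoblastic leukaemia (T-ALL). The antibodies were against ETS1 (Santa cruz, sc-55581) and RUNX1 (Abcam, ab272456), with 2 libraries each. In CUT&Tag a transposase tethered to an antibody cuts the DNA near the bound factor, and the released fragments are sequenced. No treatment or genetic change is given, so all 4 libraries share 1 condition and 1 cell line, and peaks of each were called against IgG, the antibody control.

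RUNX1 binds DNA with its partner CBFB and is required for blood stem cells and for several steps of T-cell development, while ETS1 is an ETS family factor that is abundant in lymphocytes and often binds near RUNX proteins. LncRNAs are transcribed and often spliced like messenger RNAs but encode no known protein. Some act in the nucleus or on chromatin, many are precursors of microRNAs (miRNAs) or small nucleolar RNAs (snoRNAs), and many others are transcripts of enhancers with no known role of their own. A transcription factor at the start of such a gene may sit at its promoter, at an enhancer, or at both.

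The ETS1 lists held 6082 and 5625 peaks and the RUNX1 lists 25360 and 25001, with a median summit pileup (stacked reads or fragments) of 54 and 51 for ETS1 and 75 and 71 for RUNX1. The lists hold no read totals, and sequencing depth is therefore unknown. Nothing says whether libraries of an antibody came from separate cultures, so their spread may be technical. The cell type was checked against marker genes. Of 10 T-lineage genes, 9 had a RUNX1 region and 5 an ETS1 region at a gene end. These counts were 1 and 0 of 6 B-lineage, 1 and 0 of 6 myeloid and 1 and 0 of 6 non-blood genes. Across 15812 coding genes, 45.7% and 44.9% had a summit at the 5′ end in the RUNX1 libraries. In the ETS1 libraries 21.1% and 19.97% did. RUNX1 at a gene end was thus common among coding genes at large. These shares count summits of single libraries at 5′ ends, so they are only a rough background for the marker counts.

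The promoter windows of 5 genes are shown because they span the range found, from strong RUNX1 with ETS1 to RUNX1 alone and to ETS1 above RUNX1. They were chosen after their values were seen. Each runs from 250 bp before to 50 bp after a listed RefSeq start (GRCh38.p14), 5′ to 3′ on the gene's strand, and positions count from 1 at its first base. Capitals mark the letters TGTGGT or TGCGGT, the core that RUNX proteins bind, and CGGAAG, a core that ETS proteins bind, on either strand.
LOC101929333, chr15:74490235-74490534 (-): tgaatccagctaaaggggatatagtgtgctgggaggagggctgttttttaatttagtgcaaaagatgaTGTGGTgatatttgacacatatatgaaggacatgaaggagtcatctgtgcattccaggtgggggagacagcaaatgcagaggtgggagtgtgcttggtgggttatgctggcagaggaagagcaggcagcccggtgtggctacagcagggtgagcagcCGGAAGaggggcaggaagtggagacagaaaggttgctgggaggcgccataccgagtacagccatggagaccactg
LOC105376627, chr11:35082583-35082882 (+): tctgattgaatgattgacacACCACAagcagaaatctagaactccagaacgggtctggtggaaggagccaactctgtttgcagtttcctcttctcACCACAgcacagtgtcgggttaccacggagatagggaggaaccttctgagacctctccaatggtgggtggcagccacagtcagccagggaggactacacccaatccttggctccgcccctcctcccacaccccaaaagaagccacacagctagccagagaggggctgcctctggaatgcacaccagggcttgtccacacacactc
LOC105370660, chr14:99287313-99287612 (-): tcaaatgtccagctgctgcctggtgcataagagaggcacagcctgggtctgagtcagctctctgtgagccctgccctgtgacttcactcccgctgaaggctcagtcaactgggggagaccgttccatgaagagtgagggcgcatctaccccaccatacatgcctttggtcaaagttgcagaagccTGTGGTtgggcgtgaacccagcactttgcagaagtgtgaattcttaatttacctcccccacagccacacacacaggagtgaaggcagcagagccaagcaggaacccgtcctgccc
MIR17HG, chr13:91347437-91347736 (+): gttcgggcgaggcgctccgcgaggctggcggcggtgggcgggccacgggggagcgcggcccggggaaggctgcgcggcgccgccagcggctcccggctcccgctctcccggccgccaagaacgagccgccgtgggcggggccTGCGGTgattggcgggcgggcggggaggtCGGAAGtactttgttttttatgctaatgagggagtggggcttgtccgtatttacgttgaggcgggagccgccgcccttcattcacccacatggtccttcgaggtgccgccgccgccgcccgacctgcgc
SNHG29, chr17:16438737-16439036 (+): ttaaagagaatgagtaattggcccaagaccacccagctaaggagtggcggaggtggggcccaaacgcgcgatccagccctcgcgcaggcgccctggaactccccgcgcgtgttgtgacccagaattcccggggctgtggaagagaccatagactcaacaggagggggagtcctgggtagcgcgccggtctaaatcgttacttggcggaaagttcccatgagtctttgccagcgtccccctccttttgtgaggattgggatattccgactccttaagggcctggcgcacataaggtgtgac

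In the LOC101929333 window the RUNX core TGTGGT began at position 69 and CGGAAG at position 226, and the summits lay at position 285 in both RUNX1 libraries and 283 in both ETS1 libraries. LOC105376627, whose nearest coding gene is the adhesion receptor gene CD44, held TGTGGT on the opposite strand at positions 21 and 96, with both RUNX1 summits at 242. LOC105370660, near BCL11B, held TGTGGT at position 186, and the RUNX1 summits lay at 49 and 48. The MIR17HG window held TGCGGT at position 143 and CGGAAG at 172, with both RUNX1 summits at 68 and no ETS1 peak. The SNHG29 window held none of these letters, although its ETS1 summits (97 in both libraries) and RUNX1 summits (93 in both) fell inside it. A match of letters is a description and not a binding site.

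By fold, RUNX1 at lncRNA ends was close to that elsewhere. The mean fold over IgG at the summit ranged from 2.97 to 156.9 with a median of 8.44 (quartiles 5.42 and 14.7). The median was 8.24 at the other 4604 RUNX1 regions that lay outside coding genes and 1 to 100 kb from a coding end, and 8.03 at the 7830 regions within 1 kb of a coding gene end. A mean fold over 20 was reached by 86 members (13.4%), against 13.9% of all RUNX1 regions. The members had a median width of 856 bp (294 to 6664), against 759 bp at the other intergenic regions and 987 bp at coding ends. The median RUNX1 pileup at the summit was 81.5, over a median IgG expectation of 8.74. At the other intergenic regions these medians were 68 and 7.74, and at coding ends 97 and 11.1. Pileup thus differed between the sets more than fold did. Fold, width and pileup of RUNX1 chose the regions, so they are given as a description without a test.

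LncRNA genes with provisional LOC symbols made up 361 of the 640 members and LINC genes 160. A further 50 had other names, 37 were antisense, 17 lay at miRNA host genes, 10 at snoRNA host genes (SNHG) and 5 at divergent transcripts. The end of a small RNA gene lay in the same 1000 bp window at 29 members, the end of another lncRNA gene at 41 and the end of a pseudogene at 40. A gene segment of an antigen receptor lay within 10 kb of 5 members.

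The highest RUNX1 fold was at the 5′ end of LINC01063 (chromosome 3, 196631764 to 196634450), 6587 bp from NRROS, a gene for a membrane protein of myeloid cells and microglia that holds latent TGF-beta. The fold was 153.3 and 160.5 in the RUNX1 libraries (mean 156.9 ± 5.08, SD, n = 2) over pileups of 2371 and 2262. The same region had an ETS1 fold of 18.3 and 19.1. All 4 values were high for their antibody, and both libraries of an antibody lay close together.

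The next highest was at LOC105370399 on chromosome 14 (22554016 to 22559005), with RUNX1 folds of 134.7 and 128.9 (mean 131.8 ± 4.11, SD, n = 2) and ETS1 folds of 12.3 and 12.4. It lay between TRAC, the constant segment of the T-cell receptor alpha chain, 4378.5 bp away, and DAD1, a subunit of the oligosaccharyltransferase, 8396.5 bp away. This is the interval known to hold the enhancer of the T-cell receptor alpha gene. The ETS1 and RUNX1 mean summits were 3 bp apart. The region was 4990 bp wide and also held an end of LINC02332.

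LOC105374308, 51385.5 bp from the ketone body enzyme gene BDH1, had RUNX1 folds of 121.5 and 129 and ETS1 folds of 7.42 and 6.26. LOC124904056, near CD300A, an inhibitory receptor gene of leukocytes, had 95.5 and 99.9 for RUNX1 and 13.8 and 14.4 for ETS1. LINC01686, 11347.5 bp from RGS16, a gene for a regulator of G-protein signalling, had 95.7 and 95.1 for RUNX1, with 4.94 and 5.16 for ETS1. ETS1 fold thus differed widely among members of similar RUNX1 fold.

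LOC124903038, 1633 bp from the cilia gene CFAP251, had RUNX1 folds of 91.4 and 88.3 and ETS1 folds of 6.85 and 7.98. LOC105376735, near CIROZ, had 83.7 and 88.9 for RUNX1 and 11.7 and 11.1 for ETS1. LINC02569, 22379.5 bp from HLA-E, a non-classical MHC class I gene, had 68.4 and 77.5 for RUNX1 and 23.3 and 21.3 for ETS1. ETS1 was present at all 3, and it was strongest at LINC02569, the weakest of them for RUNX1.

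The remaining members of the 15 with the highest RUNX1 fold ranged from 49.1 to 60.2 (means of the 2 libraries). LOC124904653, near the AP-1 gene JUND, had a mean RUNX1 fold of 60.2 ± 3.96 (SD, n = 2) and 4.34 ± 0.285 for ETS1, with the summits of the factors 1346 bp apart. LOC112268274, near the cyclophilin-like gene PPIAL4H on 1q21, had 59.0 for RUNX1 and 23.4 for ETS1. LINC02288, near IRF2BPL, had 55.4 for RUNX1 and 7.44 for ETS1. LOC101929333, near UBL7, had 49.1 for RUNX1 and 16.7 for ETS1.

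Of the 15, 3 had no ETS1 peak in either library. They were C10orf55 near PLAU, the urokinase gene (RUNX1 folds of 58.6 and 57.3), LOC124902030 near PTK2, the focal adhesion kinase gene (52.6 and 52.4), and LINC01671 near the transporter gene SLC37A1 (48.7 and 53.0). A high RUNX1 fold was therefore found both with and without ETS1.

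The ETS1 libraries had no part in the choice of the regions. A reproducible ETS1 region overlapped 144 of the 640 members, or 22.5% (95% Wilson interval 19.4 to 25.9), where all RUNX1 regions give 20.6% as the background. The share depends on the peaks used and on what counts as shared. It was 10.9% with a reciprocal overlap of 50%, 15.3% with summits within 100 bp and 50.6% with equal numbers of peaks per library. The other intergenic regions gave 4.24%, 7.65% and 35.4% under the same settings. The share over all RUNX1 regions was not recomputed under them, so the 20.6% is no background for these values. In single libraries 167 (26.1%) and 157 (24.5%) held an ETS1 peak, with backgrounds of 24.2% and 22.5%. The members were thus close to the average of all RUNX1 regions, which includes those at coding promoters. No ETS1 peak of either library was present at 460 members (71.9%), and 36 had a peak that was not part of a reproducible ETS1 region. The intervals cover counting error only.

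Against regions in the same kind of place the shares differed. Of the 4604 other intergenic RUNX1 regions, 490 (10.6%, interval 9.78 to 11.6) held an ETS1 region, with 13.3% and 12.0% in the single libraries. The members exceeded them by 12.8 and 12.5 percentage points in the ETS1 libraries (mean 12.7 ± 0.199, SD, n = 2). Coding gene ends had more ETS1 than the members, 35.6% (34.5 to 36.6), and the members lay below them by 14.7 and 14 points. Both differences were larger than the spread between the ETS1 libraries, which were scored on the same RUNX1 regions. That spread does not measure the uncertainty between sets of regions, and no test over regions was made. The excess over other intergenic regions, 11.9 points for reproducible ETS1 regions, was 6.70 points with a reciprocal overlap of 50% and 7.67 with summits within 100 bp.

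**Figure D1:**
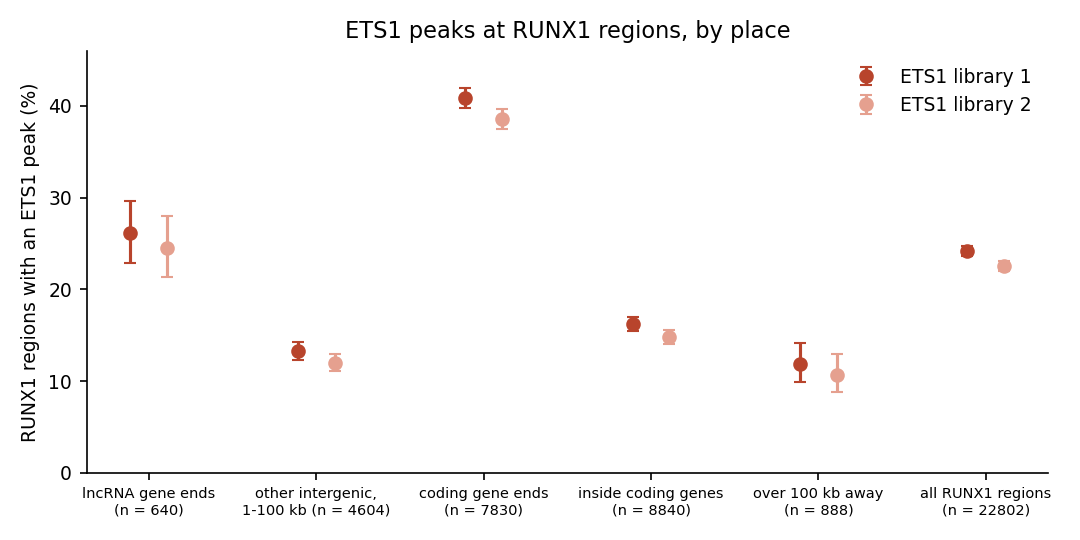
Share of RUNX1 regions that hold an ETS1 peak, in percent, by place, for ETS1 libraries 1 and 2. Points are shares and bars 95% Wilson intervals. Members at lncRNA gene ends (26.1% and 24.5%) lie between the other intergenic regions (13.3% and 12.0%) and coding gene ends (40.8% and 38.5%).

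Members differed from the other intergenic regions in width and pileup. The share was also set against regions of like fold and of like width, while pileup was not matched. With the other intergenic regions weighted to the members over 10 equal groups of RUNX1 fold, 10.7% held ETS1, and over 10 groups of width 12.7%, against 22.5% of the members. In the group of lowest RUNX1 fold ETS1 was present at 1.54% of members and 1.34% of other intergenic regions, and in the highest at 56.9% and 41.6%. Coding ends ranged from 6.23% to 76.4% over the same groups. ETS1 was therefore found more often at stronger RUNX1 regions in each of these kinds of place. The members lay above the other intergenic regions in all 10 groups, but their intervals overlapped in 4 of them, the lowest and the highest included.

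**Figure D2:**
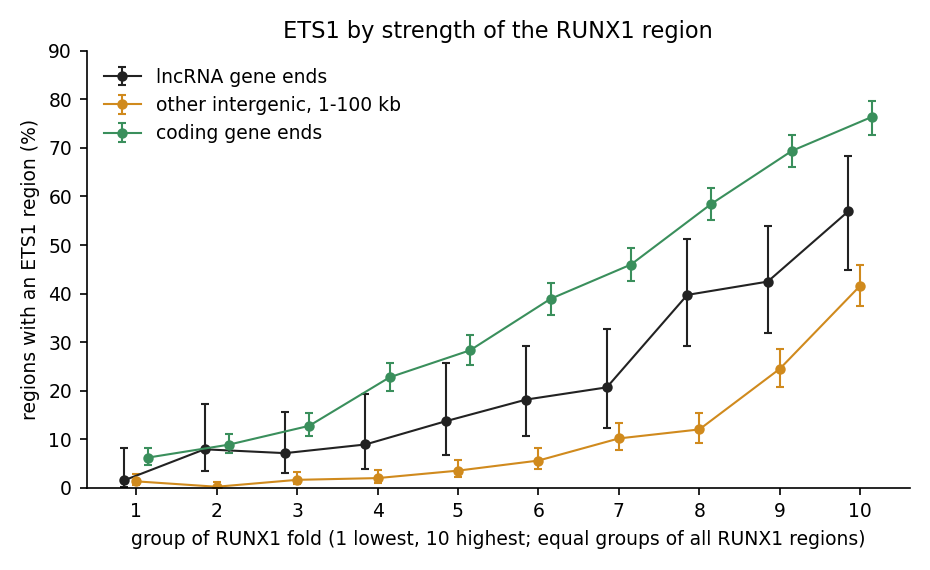
Share of regions with a reproducible ETS1 region (percent, y axis) in 10 equal groups of all RUNX1 regions by RUNX1 fold (x axis, lowest to highest). Lines join members at lncRNA gene ends, other intergenic regions and coding gene ends, and bars are 95% Wilson intervals. Members rise from 1.54% to 56.9%, other intergenic regions from 1.34% to 41.6%.

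Distance to a coding gene was examined because a member near one could share its promoter. At 1 to 5 kb from a coding end 24.3% of 140 members held ETS1, at 5 to 20 kb 22.4% of 250, at 20 to 50 kb 22.8% of 167, and at 50 to 100 kb 19.3% of 83. The other intergenic regions gave 13.1%, 11.4%, 8.72% and 7.68% at the same distances. The gap between the sets was present at each distance.

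Where a small RNA gene ended in the same window, 16 of 29 members held ETS1 (55.2%, interval 37.5 to 71.6). Without these members the share was 20.9%, and the difference from other intergenic regions was 10.3 points. Among the 16 were SNHG11, SNHG25, SNHG29 and MIR210HG, which host the snoRNA or miRNA in question. A pseudogene end in the window went with 27.5% of 40 members. Whether a short RNA gene or the lncRNA gene accounts for ETS1 there was not tested.

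Where both factors were present, ETS1 was usually the weaker by fold. At the 144 members with ETS1 its mean fold ranged from 3.18 to 109.7, with a median of 6.10, and the median RUNX1 fold was 15.6. Members without an ETS1 region had a median RUNX1 fold of 7.30, a median pileup of 67.75 against 153.5, and a median width of 756.5 bp against 1419 bp. The mean summits of the factors were a median of 52.25 bp apart, and at 96 members (66.7%) within 100 bp. Over the 144 members, which share their libraries, Spearman's rho between the factors was 0.310 for fold and 0.478 for pileup. Between libraries it was 0.895 for ETS1 fold over the same members and 0.965 for RUNX1 fold over all 640.

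**Figure D3:**
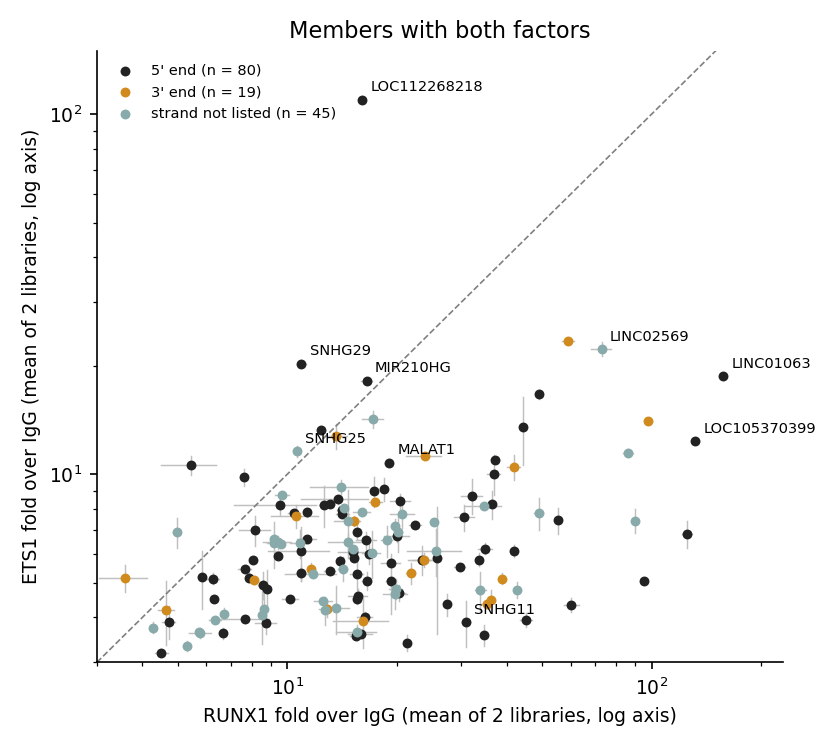
Mean ETS1 fold over IgG (y) against mean RUNX1 fold over IgG (x) at the 144 members with both factors, on log axes. Grey lines span the 2 libraries of each antibody, colours give the end of the lncRNA gene, and the dashed line marks equal folds. Most points lie below the line, and LOC112268218 stands far above it at 109.7-fold for ETS1.

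ETS1 fold exceeded RUNX1 fold at 9 members, at each of which the lower ETS1 library was above the higher RUNX1 library. Folds of different antibodies are not on a common scale, so this marks an order among members and not an amount of protein. LOC112268218 (chromosome 1, 1746081 to 1746774), 4804.5 bp from the NAD kinase gene NADK, had ETS1 folds of 109.66 and 109.72 and RUNX1 folds of 16.3 and 15.8. The ETS1 pileups were 1071 and 990. Its window also holds an end of a pseudogene, SLC35E2A.

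SNHG29, a host gene of snoRNAs, had ETS1 folds of 20.2 and 20.4 and RUNX1 folds of 10.6 and 11.2. MIR210HG, host of the hypoxia-induced miR-210, had 18.5 and 17.9 for ETS1 and 15.9 and 17.1 for RUNX1 at its 5′ end. SNHG25 had 12.0 and 11.2 for ETS1 and 10.4 and 10.9 for RUNX1. In these genes the library values of the 2 antibodies did not overlap.

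The 10 highest ETS1 folds also included LOC112268274 (23.4 ± 0.409), LINC02569 (22.3 ± 1.41), LINC01063 (18.7 ± 0.553), LOC101929333 (16.7 ± 0.721), LOC124904056 (14.1 ± 0.405) and LOC100996756 (14.2 ± 1.07, near LOC112268274; SD, n = 2). LOC124904635, near the zinc finger gene ZNF846, completed them with 16.4 and 10.6, a mean of 13.5 ± 4.10, so its place in this order rests on library 1. Its ETS1 pileups were 84 and 78 over IgG expectations of 4.17 and 6.43. Of the 10, 5 were also among the 15 highest for RUNX1. The windows of LOC112268274 and LOC101929333 also hold an end of a small RNA gene. That of LOC112268274 holds an end of the pseudogene SEC22B4P as well.

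A strand was listed for the lncRNA genes of 457 members, and 332 of these (72.6%) lay at the 5′ end, where transcription starts, and 125 at the 3′ end. The rule used the distance to an end but not which end. The share at the 5′ end was 82.1% with a window of 500 bp and 65.9% with 2000 bp. Within 250 bp of the end lay the mean RUNX1 summit of 194 of the 332 members at 5′ ends (58.4%) and of 23 of the 125 at 3′ ends (18.4%). At 5′ ends the summits fell about evenly on both sides, 165 upstream and 167 downstream, with a median of 2 bp. ETS1 was present at 24.1% of members at 5′ ends (interval 19.8 to 29.0), 15.2% at 3′ ends (9.95 to 22.5) and 24.6% where no strand was listed.

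The same comparison was made over all lncRNA gene ends that could have had a member. Of 14588 ends outside coding genes and 1 to 100 kb from a coding end, 4.89% had a RUNX1 region and 1.3% an ETS1 region within 1000 bp. Among 3843 ends known to be 5′, 9.94% and 9.81% had a summit in the RUNX1 libraries and 2.97% and 2.84% in the ETS1 libraries. Among 5005 known 3′ ends the shares were 3.64% and 3.58% for RUNX1 and 0.939% and 0.779% for ETS1. The ratio of 5′ to 3′ was 2.73 and 2.74 for RUNX1 and 3.16 and 3.64 for ETS1, the same direction in all 4 libraries. At 15812 coding genes, where the same genes gave both ends, it was 7.92 in both RUNX1 libraries and 9.44 and 9.43 in the ETS1 libraries. The lncRNA ratio compares different sets of ends, chosen by their distance to coding genes. The coding and lncRNA ratios are thus not built alike.

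**Figure D4:**
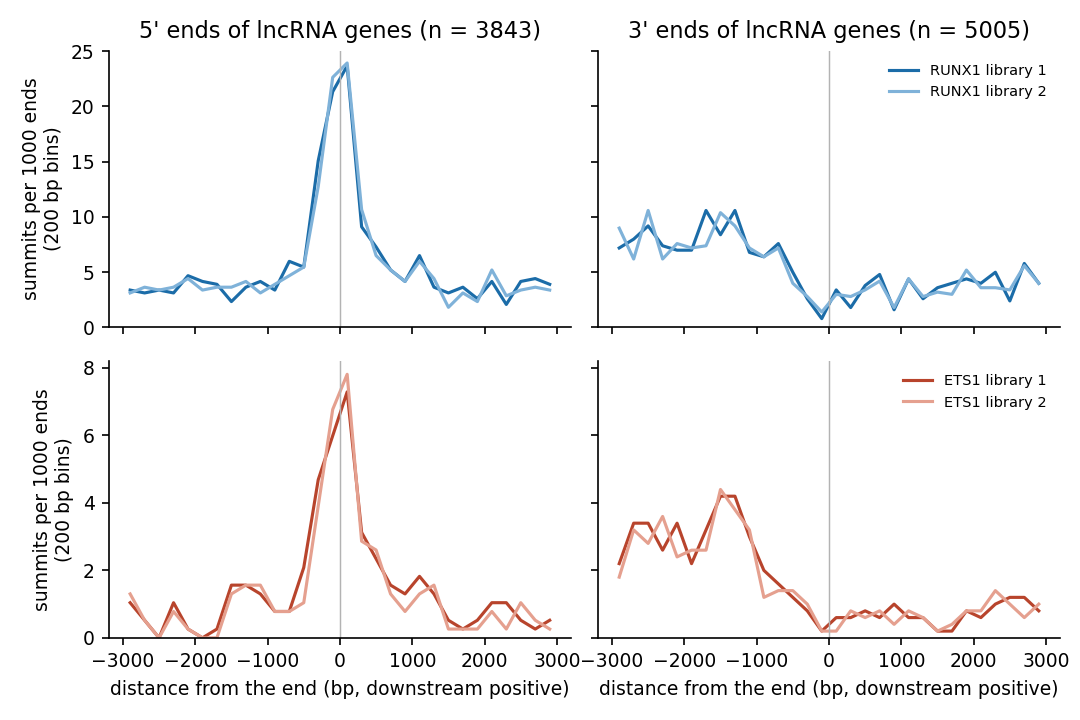
Summits per 1000 gene ends in bins of 200 bp around 3843 5′ ends (left) and 5005 3′ ends (right) of lncRNA genes, for the 2 RUNX1 (top) and 2 ETS1 libraries (bottom). At 5′ ends all 4 libraries peak next to the end, RUNX1 at 23.7 and 23.9 and ETS1 at 7.29 and 7.81 per 1000 in the bin just downstream. At 3′ ends there is no peak at the end, and summits are more frequent on the gene side.

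In the 200 bp before 3′ ends RUNX1 had 0.799 and 1.40 summits per 1000 ends, against 10.6 and 9.19 in the bin centred 1300 bp before them, inside or upstream of the gene. ETS1 had 0.200 in both libraries just before 3′ ends and 4.20 and 3.796 per 1000 in that bin. Many lncRNA genes are short, so this bin can include their 5′ ends. It can also hold coding gene ends, which the rule keeps at least 1 kb away from the lncRNA ends counted. Neither part was separated here. Of the members, 89 belonged to lncRNA genes of at most 2000 bp, and without such genes the share at 5′ ends was 73.25%.

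By kind of gene, RUNX1 was present at 10 of 23 eligible snoRNA host ends (43.5%, interval 25.6 to 63.2) and 18 of 95 miRNA host ends (18.9%, 12.3 to 28.0). The share was 8.08% for other named genes, 7.26% for LINC genes, 5.74% for antisense genes, 3.97% for LOC genes and 1.95% for divergent transcripts, against 4.89% over all. These shares pool 5′ and 3′ ends, and the order of the classes changes at known 5′ ends alone. There it was 72.7% for snoRNA hosts (8 of 11), 26.3% for miRNA hosts (10 of 38), 14.7% for antisense, 13.9% for other named, 11.3% for LINC, 11.1% for divergent (2 of 18) and 7.37% for LOC genes. Divergent transcripts mostly start at a coding promoter, and the rule leaves such ends out. By chromosome the share ran from 1.43% on chromosome 18 and 1.54% on chromosome 4 to 9.06% on chromosome 17 and 10.8% on chromosome 22. Gene density and base composition differ between these chromosomes and their part was not tested.

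As a share of each library's summits, those at lncRNA ends were 3.13% and 3.23% for ETS1 (mean 3.18 ± 0.0676, SD, n = 2) and 2.81% in both RUNX1 libraries. The difference of 0.366 points gave an exact permutation p of 0.333 (two-sided, 6 splits), the smallest this design allows. It turned to -0.0976 points with a window of 2000 bp and to -0.187 with equal numbers of peaks per library, so no direction is drawn. Among intergenic summits alone the shares were 22.1% ± 0.878 for ETS1 and 12.0% ± 0.00367 for RUNX1 (exact p of 0.333), a measure added after the data were seen.

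The promoter windows allowed a look at sequence. Of the 332 members at 5′ ends 326 had a RefSeq window within 1000 bp, which gave 324 windows of different genes. Their median GC content was 61.7% and their median number of CpG dinucleotides 15, against 48% and 4 in 3373 windows at eligible 5′ ends without a RUNX1 region and 58.7% and 14 in all 34961 windows of the table. The members' starts were thus closer in composition to the whole table than to lncRNA starts without RUNX1.

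The RUNX core TGTGGT was in 17.6% of the members' windows (interval 13.8 to 22.1), 17.8% of those without RUNX1 and 13.1% of the whole table. TGCGGT, which contains a CpG, was in 12.0% (8.93 to 16.0), 3.91% and 7.30%. Either of them was in 27.2%, 21.1% and 19.6%, and in 34.9% of the 106 windows that held both RUNX1 summits. In those 106 windows TGTGGT was in 17.9% and TGCGGT in 19.8%, so the higher pooled share lay in TGCGGT. Their median GC content was 66.5% and their median number of CpG 23, against 61.7% and 15 in all members' windows. The ETS core CGGAAG was in 23.5% of the members' windows, 8.51% of those without RUNX1 and 19.4% of the table. It was in 33.8% of windows of members with ETS1 (24.3 to 44.6) and 20% of those without (15.5 to 25.5). CGGAAG also contains a CpG, and the median number of CpG was 22 in the windows with ETS1 and 13 in those without. These motifs do not overlap each other in letters except by chance, both strands were searched, and a part of base composition in these shares was not tested.

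Host genes of miRNAs hold the precursor hairpin in an intron or exon, and the mature miRNA pairs with messenger RNAs through its seed, bases 2 to 8. Of the lncRNA genes with a member, 19 held 35 miRNA genes of the RefSeq table, and MIR17HG held 6 of them. The main mature forms of MIR17HG are shown, with those of MIR155HG, MIR223HG and MIR210HG, because their host genes are the blood-cell or best-known hosts among the members. Capitals mark the seed.
hsa-miR-17-5p: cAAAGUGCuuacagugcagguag
hsa-miR-20a-5p: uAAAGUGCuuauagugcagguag
hsa-miR-18a-5p: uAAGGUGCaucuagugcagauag
hsa-miR-19a-3p: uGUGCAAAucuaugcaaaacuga
hsa-miR-19b-3p: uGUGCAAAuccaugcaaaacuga
hsa-miR-92a-3p: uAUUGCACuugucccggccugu
hsa-miR-155-5p: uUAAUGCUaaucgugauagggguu
hsa-miR-223-3p: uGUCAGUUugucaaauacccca
hsa-miR-210-3p: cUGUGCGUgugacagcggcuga

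In this set miR-17-5p and miR-20a-5p share the seed AAAGUGC, and miR-19a-3p and miR-19b-3p share GUGCAAA. MIR17HG, the host of the miR-17-92 cluster, which is known as oncogenic in lymphoid cells, had RUNX1 folds of 4.73 and 4.46 at its 5′ end and no ETS1 peak. MIR155HG, the host of a miRNA induced in activated lymphocytes, had 3.70 and 4.31 and no ETS1 peak. MIR223HG, whose miRNA is best known in myeloid cells, had 15.4 and 14.9 for RUNX1 and an ETS1 peak in library 1 alone. MIR17HG and MIR155HG were thus among the weak members, and MIR223HG was above the members' upper quartile of 14.7.

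The other miRNA host members had mean RUNX1 folds from 4.28 (MIR194-2HG) to 11.9 (MIR200BHG), apart from MIR210HG at its 5′ end (16.5). MIR3142HG, which holds the inflammation-related miR-146a, had 6.45 and 6.62. MIR23AHG had 2 members, with means of 6.12 at its 3′ end and 4.36 at its 5′ end. MIRLET7A1HG, a host of let-7 miRNAs, had RUNX1 folds of 13.0 and 8.85 and ETS1 folds of 5.06 and 7.14, so RUNX1 was above ETS1 in both replicate numbers. In all, 2 of 17 members at miRNA hosts had an ETS1 region (11.8%, interval 3.29 to 34.3), against 22.5% of all members. An ETS1 peak was present at 29.4% of them in library 1 and 11.8% in library 2, so the share depends on the library. Counted over eligible ends instead of members, 4 of 95 miRNA host ends had an ETS1 region (4.21%, interval 1.65 to 10.3), against 1.30% of all eligible ends.

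At snoRNA hosts 5 of 10 members had an ETS1 region (50%, interval 23.7 to 76.3), against 22.5% of all members and 20.6% of all RUNX1 regions. The interval overlaps that of the miRNA hosts, and the difference was not tested. SNHG11 had RUNX1 folds of 31.7 and 30.1 and ETS1 folds of 4.44 and 3.32, and SNHG15 had 14.9 and 15.4 and 6.13 and 6.29. SNHG5 was low for both factors, with RUNX1 folds of 4.52 and 4.93 and ETS1 folds of 4.29 and 3.48. The members at SNHG8, SNHG16, SNHG30, SNHG32 and SNHG33 had mean RUNX1 folds from 3.63 to 6.22 and no ETS1 region.

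**Figure D5:**
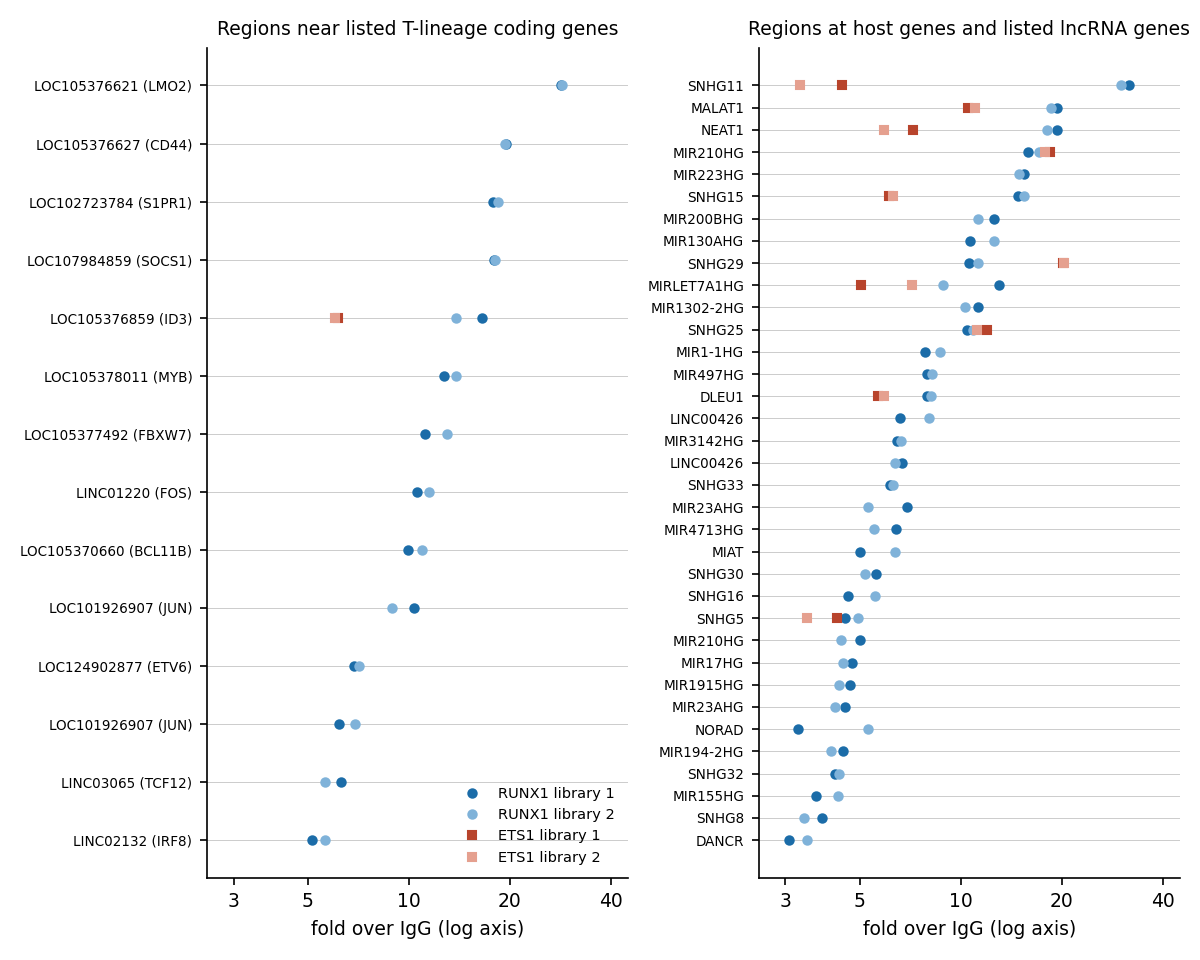
Fold over IgG (log axis) in each RUNX1 library (circles) and ETS1 library (squares) at members whose nearest coding gene is a listed T-lineage gene (left) and at members of miRNA and snoRNA host genes and listed lncRNA genes (right). A gene with 2 members appears in 2 rows, and no square means no reproducible ETS1 region. RUNX1 ranges from about DANCR (mean 3.28) to SNHG11 (30.9), and ETS1 is highest at SNHG29 (20.3).

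Of 26 lncRNA genes in the table from a list headed widely expressed, 10 had a member (38.5%), against 3.28% of all lncRNA genes. The list was not limited to such genes, since it also held HOTAIR, H19, MEG3, UCA1 and XACT, all without a member. Among the 10 were SNHG5, SNHG8, SNHG15, SNHG16, SNHG29 and SNHG32, whose members are the same as those given above for snoRNA hosts. A member with ETS1 was found at 5 of the 26, against 0.788% of all lncRNA genes. Among genes with a member these were 5 of 10, against 141 of 588. MALAT1, an abundant nuclear RNA of speckles, had RUNX1 folds of 19.4 and 18.6 and ETS1 folds of 10.5 and 11.02 at its 5′ end. NEAT1, the scaffold of paraspeckles, had 19.4 and 18.1 for RUNX1 and 7.2 and 5.91 for ETS1. The median RUNX1 fold of the 10 was 4.91, below the members' median of 8.44.

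NORAD, which binds PUMILIO proteins, had RUNX1 folds of 3.26 and 5.31 and an ETS1 peak in library 1 alone. DANCR had 3.08 and 3.48 and no ETS1 peak. Both lay in the lower part of the range.

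Of 41 lncRNA genes in the table from a list drawn up for the T lineage and T-ALL, 22 had an eligible end. A member was found at 6 of the 41 (14.6%, against 3.28% of all lncRNA genes), with 7 members in all. The list was broad, and the 6 were MIR155HG, MIR17HG, MIR223HG, LINC00426, DLEU1 and MIAT. The miRNA of MIR223HG is best known in myeloid cells, so the share is not one of T-lineage genes alone. LUNAR1 and NALT1, lncRNA genes near the NOTCH1-responsive gene IGF1R and NOTCH1 itself, had 2 eligible ends each and 0 members. The median RUNX1 fold of the 7 was 6.52. DLEU1, in the deleted region of chronic lymphocytic leukaemia, had RUNX1 folds of 7.91 and 8.15 and was the one with ETS1, at 5.67 and 5.89. LINC00426 had 2 members, with means of 6.52 and 7.33, and MIAT had 5.69. These lists were drawn up with earlier results of the data known, and their counts give no independent evidence.

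Among 156 coding genes of the T lineage and T-ALL, 13 (8.33%) were the nearest coding gene of a member, against 2.8% of all coding genes, with 14 members. Their median RUNX1 fold was 11.6, against 8.44 for all members. An ETS1 region was present at 1 of the 14, where the share is 22.5% of all members and 20.6% of all RUNX1 regions. The difference of 1 in 14 from these shares was not tested. This was LOC105376859, 3218 bp from the midpoint to ID3, a gene for an inhibitor of E proteins. It had RUNX1 folds of 16.5 and 13.8 and ETS1 folds of 6.16 and 6.01.

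LOC105376621 lay 1602.5 bp from LMO2, a T-ALL oncogene and cofactor of TAL1, with RUNX1 folds of 28.5 and 28.7 and no ETS1 peak. LOC105376627, 56464.5 bp from CD44, had 19.5 and 19.3 and no ETS1 peak. LOC102723784, 67448 bp from the lymphocyte egress receptor gene S1PR1, had 17.8 and 18.5, with an ETS1 peak in library 1 alone. LOC107984859, 29078 bp from the cytokine signalling inhibitor gene SOCS1, had 17.96 and 18.03, with an ETS1 peak in library 2 alone. These 4 were the strongest of the list, and none had a reproducible ETS1 region.

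LOC105378011, 16771.5 bp from the T-ALL oncogene MYB, had RUNX1 folds of 12.8 and 13.8. LOC105377492, 10037 bp from FBXW7, which encodes the ubiquitin ligase subunit that degrades NOTCH1 and MYC, had 11.2 and 13.0. LOC105370660, 15344 bp from BCL11B, the T-commitment factor, had 9.95 and 10.9. No ETS1 peak was called at these 3 members.

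The others were LINC01220 near FOS (mean 11.03), LOC101926907 near JUN with 2 members (9.62 and 6.54), LOC124902877 near ETV6 (6.996), LINC03065 near TCF12 (5.95) and LINC02132 near IRF8 (5.37), again RUNX1 means. An ETS1 peak in library 1 alone was called at LINC03065. The nearest gene by distance is not known to be the gene a region acts on.

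Gene segments of antigen receptors gave 4 members besides the one near TRAC. LOC105372948 had members 3432 bp from IGLV3-1 and 1057.5 bp from IGLV3-9, of the immunoglobulin lambda locus, with mean RUNX1 folds of 33.6 and 17.6. The first held ETS1 at 6.02 and 5.55. LOC101929255, 189 bp from IGLV1-40, had a RUNX1 fold of 12.3, and LOC124901762, 183.5 bp from TRBD2 of the T-cell receptor beta locus, had 9.13 ± 1.39 (SD, n = 2), both without ETS1. The immunoglobulin lambda locus is a B-lineage locus, and 1 of 6 B-lineage marker genes had RUNX1 at an end.

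RUNX1 folds of the libraries differed by a median factor of 1.09 at members, and by more than 1.5 at 17. The largest factor was at LOC124901296, near TRIM27, with folds of 6.14 and 12.2 over IgG expectations of 5.51 and 3.28 and pileups of 39 and 51. LOC124903341 near MAP3K9 had 2.62 and 4.996, LOC105375008 near MAS1L had 4.72 and 8.84, LOC107986489 near FAM153A had 7.40 and 4.01, and LOC124903876 near the cell-cycle gene E2F2 had 7.14 and 4.20. None of these 5 held an ETS1 region. For ETS1 the largest factor, 2.25, was at LOC124903699 near PDP2, with 8.10 and 3.605. The ETS1 pileups there were 55 and 47 over IgG expectations of 5.91 and 12.3, at different summits. The libraries thus differed more in the IgG expectation than in the pileup.

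The regions nearest each limit of the rule were the following. Just inside the 1000 bp window lay the second LINC00426 region (995.5 bp, mean RUNX1 fold 7.33) and LOC105373508 (994 bp, 3.90), and just outside it TAMALIN-AS1 (1001.5 bp, 4.30) and SNHG12 (1012 bp, 5.62, with ETS1). At the 1 kb limit from coding genes, LOC124908032 near the checkpoint receptor gene PDCD1 (1002.5 bp, 5.18) and LOC100287808 near PCGF2 (1065 bp, 6.16) were inside. LOC105369663 near APOLD1 (997 bp, 29.8, with ETS1) and LOC124904423 near S100A6 (984.5 bp, 9.80) were outside. At the 100 kb limit, LOC105372213 (99759 bp, 18.1) and LOC105371948 (99008 bp, 14.3, with ETS1) were inside, and LOC124901018 (100606 bp, 21.6) and LOC107985079 (101335 bp, 61.3, with ETS1) outside.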

How the data were processed

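CUT&Tag peak lists of 2 ETS1 and 2 RUNX1 libraries from 6T-CEM cells were used. The submitters' processing notes name bcl2fastq 2.17, MACS3 3.0.0a6, Bowtie2 without a version, and hg38, and the names of the lists say that peaks were called per library against IgG. The lowest −log10 q in the 4 lists was 5.00 to 5.03. No source used here gives the call threshold, duplicate handling or read filters. The authors' deposited lists give for each peak a fold enrichment (a ratio) over IgG, −log10 p, −log10 q, a score and a summit. The deposited score was not used. Folds are the authors' values, used to describe, rank or filter peaks.

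Pileup and IgG expectation were solved from the deposited fold and −log10 p, which gave a solution for 100% of peaks. Peaks on chromosomes 1 to 22 and X were joined when touching or overlapping, and a region was kept if it held a peak of both libraries (22802 for RUNX1, 5055 for ETS1). The strongest peak of a library gave the region's fold there. Factors were called shared at an overlap of at least 1 bp. Genes came from RefSeq GRCh38.p14 (19817 coding and 17904 lncRNA genes), after 153 and 273 given by scaffold coordinates were left out. Strand came from the RefSeq promoter table and was listed for the genes of 457 members.

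Shares have 95% Wilson intervals. The libraries were compared by exact permutation. Scripts were tested on simulated data. The regions and gene lists were chosen with earlier results of these data known. Named regions are the 15 highest for RUNX1 and 10 for ETS1, those at listed genes and at miRNA and snoRNA hosts, up to 5 whose libraries differed most, and those nearest each limit. Python 3.11.15, numpy 2.4.6, pandas 2.3.3, scipy 1.17.1 and matplotlib 3.10.9 were used. Alternatives for the window, the position of a region, the threshold, the overlap and left-out libraries are in the closing section.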

Additional observations from a re-analysis of the deposited data

How the results depend on the processing

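The number of members was 444 to 942 over windows of 500 and 2000 bp and 290 with named lncRNA genes (symbols beginning with LOC left out). It was 463 for peaks with −log10 q of at least 20 and 164 with equal numbers of peaks. The share of members with ETS1 was 23.9% with a 500 bp window, 20.3% with 2000 bp, 24.2% with the summit in place of the midpoint, 15.6% for peaks with −log10 q of at least 20, 25.9% for named genes, 10.9% with 50% reciprocal overlap, 15.3% with summits within 100 bp, 50.6% with equal numbers of peaks, and 20.9% without small RNA ends. The excess over other intergenic regions, in percentage points over reproducible regions (11.9), was 12.9, 9.98, 13.8, 8.17, 14.6, 6.70, 7.67, 15.2 and 10.3 under these alternatives in turn. It was 11.5 without pseudogene ends, 11.8 weighted by RUNX1 fold and 9.83 weighted by width, so its direction held in every alternative run. Without 1 RUNX1 or ETS1 library the share ranged from 20.9% to 26.1%, and the excess from 11.4 to 12.8 points. Without 1 RUNX1 library the number of members was 691 or 700. The share at 5′ ends was 82.1% and 65.9% with windows of 500 and 2000 bp. A RUNX core was in 34.9% of windows that held both RUNX1 summits and 23.4% of those of named genes.

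The difference between antibodies in the share of summits at lncRNA ends turned to -0.0976 points with a 2000 bp window and -0.187 with equal numbers of peaks, and the cause was not tested. Without replicate 1 or 2 it was 0.413 and 0.318. With the replicate number as a block it was 0.366 (exact sign permutation p of 0.5). Same-numbered libraries share a number and no known batch, and their fold deviations correlated at r = 0.0203 over 4691 shared regions and 0.156 over the 144 members. Window, motif and weighting alternatives beyond those fixed at the start were chosen after seeing the data. Weak peaks limit what could be seen: the ETS1 lists are shorter than the RUNX1 lists, so a missing ETS1 peak does not show absence of ETS1.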
